A study of Mus musculus with 4 samples.

Results

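Complement components and receptors were followed in mouse macrophages as a set of 8 genes named by symbol, C1qa, C1qb, C1qc, C3, C3ar1, C5ar1, Cfb and Cfp, among 18193 genes on the arrays. In the probe annotation used here, 7 of the 8 had at least 1 probe set naming only that gene, 13 probe sets in all, and all 7 lay above the level floor described below. C3 had none, so its level is not analysed here. The macrophages came from the peritoneal cavity of mice given thioglycolate, an irritant that recruits macrophages, and were held on permanox slides for 18 hours. There were 4 groups of 1 array: wild type cells (WT) and cells labelled Dap12-KO, each left untreated or given interleukin-4. Interleukin-4 (IL-4) is the cytokine of alternative macrophage activation, and DAP12, encoded by Tyrobp, is a signalling adaptor of myeloid receptors. The study's design text names the question as the effect of losing DAP12 on expression at rest and under IL-4. Strain, age and the number of mice behind an array are not given in the sources used here.

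Complement is a cascade of plasma and tissue proteins that tags microbes and cell debris for uptake and calls in leukocytes. The C1q chains, encoded by C1qa, C1qb and C1qc, assemble into the recognition molecule of the classical pathway, and macrophages are a main source of it. Factor B (Cfb) and properdin (Cfp) belong to the alternative pathway: factor B supplies the protease of its convertase and properdin stabilises that enzyme. The receptors C3ar1 and C5ar1 sit on the surface of myeloid cells and respond to the small fragments released when C3 and C5 are cut.

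C1qb, C1qc and C1qa follow one another on mouse chromosome 4 with no other gene of the RefSeq table between them. The bases ahead of the annotated start of C1qb and C1qc are shown because these neighbouring genes had like values on the arrays, and those of C3ar1 and C5ar1 because the values of the receptors parted. Each stretch holds the 250 bases before the start, from RefSeq (build GRCm38.p6, minus strand), 5′ to 3′, and capitals mark the PU.1 core, GAGGAA, or its reverse complement.
C1qb, chr4:136886201-136886450: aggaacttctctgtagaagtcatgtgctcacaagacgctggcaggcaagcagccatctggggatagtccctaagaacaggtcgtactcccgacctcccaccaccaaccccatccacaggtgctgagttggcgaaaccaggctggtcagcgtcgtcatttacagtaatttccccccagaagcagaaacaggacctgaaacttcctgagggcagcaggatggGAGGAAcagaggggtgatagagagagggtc
C1qc, chr4:136892915-136893164: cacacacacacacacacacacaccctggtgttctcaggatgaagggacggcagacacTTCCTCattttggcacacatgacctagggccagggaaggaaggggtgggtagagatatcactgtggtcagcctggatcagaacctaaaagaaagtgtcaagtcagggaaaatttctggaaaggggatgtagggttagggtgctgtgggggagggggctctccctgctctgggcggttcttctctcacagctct
C3ar1, chr6:122856158-122856407: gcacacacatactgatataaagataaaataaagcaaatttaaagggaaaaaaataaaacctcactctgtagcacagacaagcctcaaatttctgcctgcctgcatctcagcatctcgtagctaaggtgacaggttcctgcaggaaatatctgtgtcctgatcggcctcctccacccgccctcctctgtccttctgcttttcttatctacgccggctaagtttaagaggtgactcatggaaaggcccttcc
C5ar1, chr7:16259339-16259588: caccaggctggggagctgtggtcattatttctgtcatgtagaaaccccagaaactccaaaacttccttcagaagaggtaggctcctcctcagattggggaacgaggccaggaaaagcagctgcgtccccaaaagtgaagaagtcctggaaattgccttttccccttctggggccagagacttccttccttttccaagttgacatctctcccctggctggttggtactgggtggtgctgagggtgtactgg

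In C1qb the PU.1 core, named for a transcription factor of myeloid cells, lay on the printed strand 30 to 25 bases before the start, and in C1qc on the opposite strand 193 to 188 bases before it. It was in 2 of the 6 members' promoters in the table, where 23.3% of all 32851 promoters of the same length hold it. The MAF site TGCTGAC (3.81% of promoters), the STAT6 type site TTCNNNNGAA (5.85%) and the interferon response type site GAAANNGAAA (2.98%), searched on both strands, were in 0 of the 6. These matches describe letters only.

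All values are log2 RMA values as deposited, and a difference of 1 is 2-fold. Where a gene had several probe sets, the one with the highest mean leads and the others follow. With 1 array per group, a difference between arrays has no replicate check and no p-value, and precision is limited by how few arrays there are. Comparisons were counted over 12767 genes whose highest value reached the floor of 6.39, the median of the table. The array labelled Dap12-KO IL-4 stood apart: its middle 50% of values spanned 2.54 log2 units against 3.19 to 3.25 on the others, and its correlations with them were 0.936 to 0.949 against 0.973 to 0.991 among the rest. The median gene was lower by −0.40 on it than on Dap12-KO untreated and by −0.39 than on WT IL-4, so values after cyclic loess scaling, which brought these medians to 0.07 and 0.11, are set beside the members' differences that use it. Tyrobp, the targeted gene, read 14.39 and 14.13 on the untreated and IL-4 arrays of wild type and 14.03 and 13.27 on those labelled Dap12-KO, so its signal does not bear out the knockout label. Where its probes lie relative to the deleted part is not known, and every genotype direction below is between arrays as labelled. On the macrophage side the label held: all 7 measured macrophage markers of 8 listed lay above the floor on all 4 arrays, among them Adgre1 at 13.01 to 13.54 and Csf1r at 14.20 to 14.60.

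**Figure D1:**
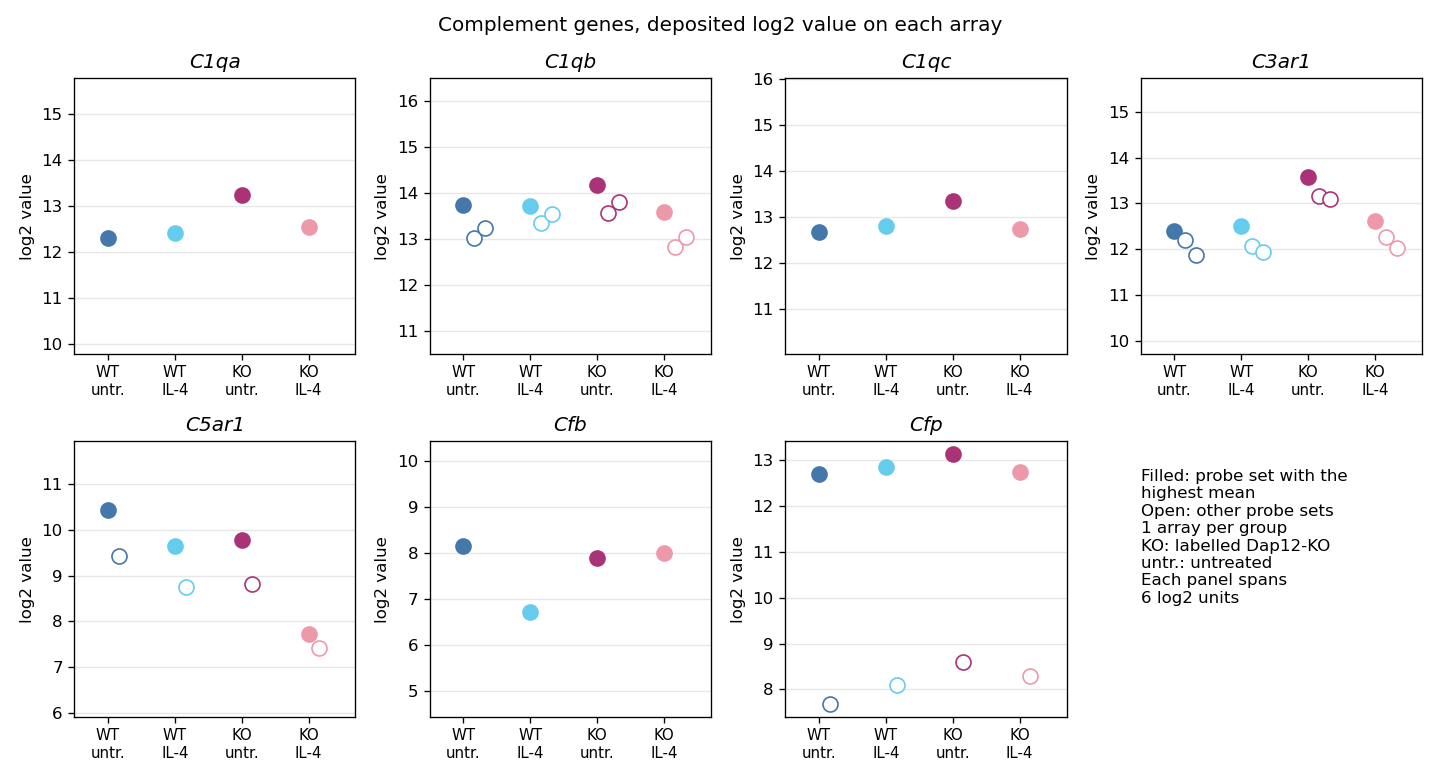
Deposited log2 value (y axis, 6 log2 units in every panel) of the 7 measured complement genes on the 4 arrays (x axis, 1 array per group). Filled points are the probe set with the highest mean and open points are the gene's other probe sets. The C1q chains, C3ar1 and Cfp peak on Dap12-KO untreated, C5ar1 is lowest on Dap12-KO IL-4 and Cfb is lowest on WT IL-4.

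By their leading probe sets the C1q genes had one pattern: little difference with IL-4 in wild type, the highest level on Dap12-KO untreated and, as deposited, a level near that of wild type on Dap12-KO IL-4. C1qa, the A chain, read 12.31 on WT untreated, 12.41 on WT IL-4, 13.25 on Dap12-KO untreated and 12.54 on Dap12-KO IL-4. C1qc, the C chain, read 12.68, 12.80, 13.36 and 12.75 in the same order. C1qb, the B chain, read 13.74, 13.71, 14.17 and 13.59. For the leading probe set of each chain, Dap12-KO untreated was the highest array, and the other arrays lay closer to each other than to it. The other C1qb probe sets read 13.03, 13.34, 13.56 and 12.83, and 13.25, 13.55, 13.81 and 13.05. Both were also highest on Dap12-KO untreated, but their WT IL-4 value lay closer to that array than to the rest.

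Untreated, the array labelled Dap12-KO was 1.91-fold higher than wild type for C1qa, 1.59-fold for C1qc and 1.34-fold for C1qb. These are log2 differences of 0.94, 0.67 and 0.43, where the median of all genes was 0.03, and 1.02, 0.75 and 0.50 after cyclic loess. C1qa thus crossed 2-fold with the scaling, and 3.60% of all genes had a larger positive difference than its deposited value. The other C1qb probe sets gave 0.53 and 0.56, close to the leading one.

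With IL-4 in wild type the leading probe sets of the C1q genes differed by −0.03 to 0.12, and the other C1qb probe sets by 0.31 and 0.30. Between the arrays labelled Dap12-KO they differed by −0.71 (C1qa), −0.61 (C1qc) and −0.57 (C1qb) as deposited, where the 865 genes with a mean level of 12 or more had a median of −0.46. After cyclic loess the same differences were −0.22, −0.14 and −0.18, so most of their size went with the scaling of that array. The other C1qb probe sets gave −0.73 and −0.76 there, or −0.29 and −0.34 after cyclic loess. Between both IL-4 arrays the chains stood within −0.11 to 0.13 as deposited and at 0.31 to 0.67 after cyclic loess. For C1qb this depended on the probe set: the other ones read −0.51 and −0.50 as deposited and −0.03 in each case after cyclic loess.

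Markers of several cell types also differed between the untreated arrays, in both directions. The mean log2 level of the 7 measured macrophage markers was 12.80, 12.61, 13.24 and 12.34 on the arrays in the order above, led by the uptake receptor kinase Mertk, which read 9.32 on WT untreated and 11.29 on Dap12-KO untreated. Of these 7, 6 were higher on Dap12-KO untreated and Cd14 was lower, at 12.97 against 13.65. For 5 measured B cell markers of 6 listed the mean was 7.69, 7.73, 8.30 and 7.80, with Ms4a1 at 8.64 and 9.76 on both untreated arrays. For 6 mast cell markers it was 6.30, 6.25, 6.91 and 6.41, with Mcpt4, Kit and Fcer1a below the floor on every array. Of 10 mesothelium and fibroblast markers 4 lay above the floor. Of these, the fibroblast genes Col1a2 (−1.26), Col3a1 (−1.30) and Dcn (−1.08) were over 2-fold lower on Dap12-KO untreated than on WT untreated, against 3.41% of all genes. Krt19 differed by 0.13 there. Over all 10 markers, 3 were higher and 7 lower in this comparison, with a median of −0.17. The part of these cells in the C1q values was not tested, and in bulk RNA a change in the share of a cell type and a change in transcript per cell cannot be told apart.

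Properdin followed the C1q genes with smaller differences. Cfp read 12.69, 12.84, 13.12 and 12.73, highest again on Dap12-KO untreated. It was 1.35-fold higher there than on WT untreated, a log2 difference of 0.43, or 0.51 after cyclic loess, and its dimmer probe set gave 0.92. With IL-4 it differed by 0.14 in wild type and by −0.39 on the arrays labelled Dap12-KO, the latter turning to 0.08 after cyclic loess.

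Factor B behaved unlike every other member. Its single probe set read 8.15 on WT untreated, 6.72 on WT IL-4, 7.89 on Dap12-KO untreated and 8.001 on Dap12-KO IL-4. WT IL-4 alone was low, close to the floor of 6.39, while the other arrays lay within 0.26 of each other. Cfb was 2.68-fold lower with IL-4 in wild type, a log2 difference of −1.42, and 0.40% of all genes had a more negative one. On the arrays labelled Dap12-KO it differed by 0.11, or 0.55 after cyclic loess. The difference of both IL-4 responses was 1.53, or 1.93 after cyclic loess. Between both IL-4 arrays Cfb was 2.42-fold higher on the one labelled Dap12-KO, a log2 difference of 1.28, or 1.73 after cyclic loess.

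The anaphylatoxin receptors parted. C3ar1, the receptor of the C3 fragment C3a, read 12.40 on WT untreated, 12.52 on WT IL-4, 13.57 on Dap12-KO untreated and 12.63 on Dap12-KO IL-4, the same shape as C1qa. C5ar1, the receptor of the C5 fragment C5a, read 10.42, 9.65, 9.78 and 7.72, highest on WT untreated and lowest on Dap12-KO IL-4. Untreated, C3ar1 was 2.25-fold higher and C5ar1 1.56-fold lower on the array labelled Dap12-KO, and their log2 differences of 1.17 and −0.64 lie 1.81 apart. This gap stays within 1 pair of arrays and is not altered by a constant shift of either.

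The C3ar1 probe sets ran together. Its other probe sets gave 0.98 and 1.22 between both untreated arrays, so its call at 2-fold rested on the probe set. After cyclic loess all 3 lay above 1, at 1.06 to 1.31. With IL-4 the leading probe set differed by 0.12 in wild type and by −0.95 on the arrays labelled Dap12-KO, or −0.47 after cyclic loess. The other probe sets gave −0.90 and −1.07 on the arrays labelled Dap12-KO, or −0.39 and −0.55 after cyclic loess. Whether C3ar1 passed 2-fold there as deposited thus rested on the probe set.

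C5ar1 was lower with IL-4 in both genotypes. The log2 difference was −0.78 in wild type, a 1.71-fold lower level, and −2.06 on the arrays labelled Dap12-KO, a 4.16-fold lower level, or −0.74 and −1.39 after cyclic loess. The other probe set gave −0.68 and −1.39, or −0.64 and −0.75 after cyclic loess. The direction was therefore shared by both probe sets, both genotypes and both scalings, while the size on the arrays labelled Dap12-KO moved by over 1.5-fold with the probe set and the scaling. Between both IL-4 arrays C5ar1 was 3.79-fold lower on the one labelled Dap12-KO, a log2 difference of −1.92, or −1.19 after cyclic loess. The other probe set gave −1.33, or −0.64 after cyclic loess, so with that probe set the difference was under 2-fold once scaled.

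C5ar1 is expressed by neutrophils as well as macrophages, and the neutrophil markers did not run together. S100a8 read 10.09, 9.20, 9.52 and 7.86, the order of arrays of C5ar1. The other 4 markers above the floor were higher on Dap12-KO IL-4 than on Dap12-KO untreated, Camp by 1.49, Elane by 0.90, Mpo by 0.77 and Cxcr2 by 0.23, or by 1.54, 0.78, 0.52 and 0.04 after cyclic loess. Of these, Elane and Mpo reached the floor on Dap12-KO IL-4 only, so they had to read higher there. Of 9 listed neutrophil markers 7 were measured, with mean log2 levels of 6.49, 6.27, 6.52 and 6.94 and with 2, 1, 3 and 5 of them above the floor on the arrays in order. S100a9 and Ltf lay below the floor on every array. The part of neutrophils in the C5ar1 values was not tested.

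**Figure D2:**
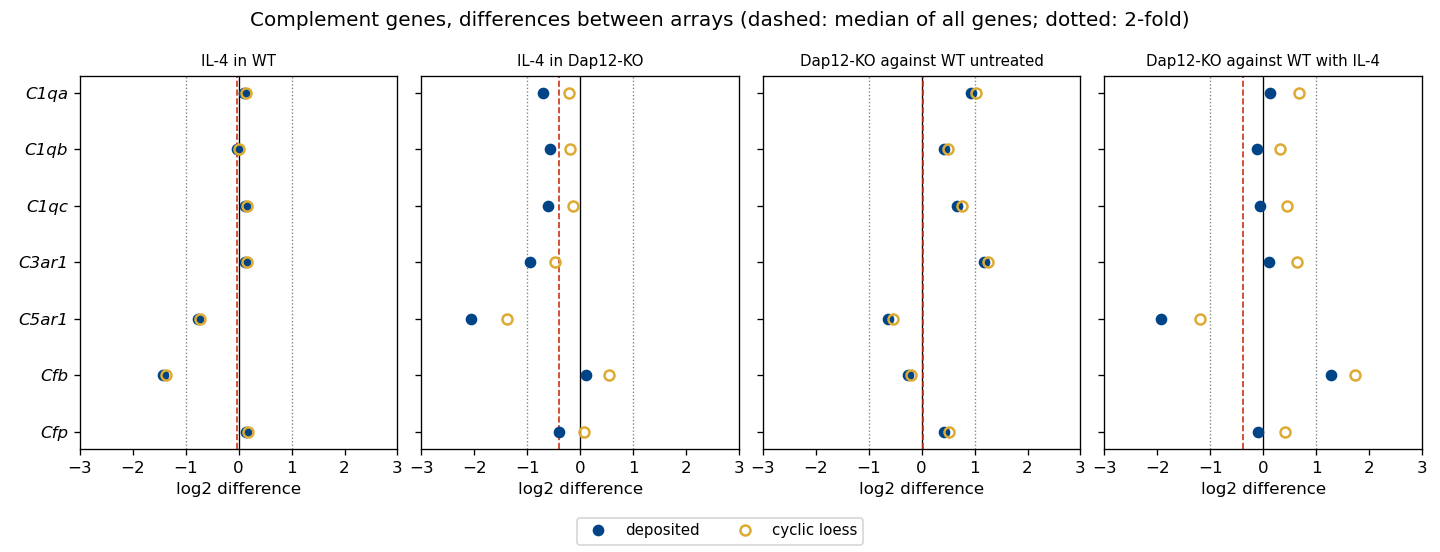
Log2 difference (x axis) of the 7 measured complement genes (y axis) in the 4 comparisons of a pair of arrays, as deposited (filled) and after cyclic loess (open). Dotted lines mark 2-fold and the dashed line the median of all genes. Without treatment the C1q chains, C3ar1 and Cfp lie to the right and C5ar1 to the left, and with IL-4 the wild type panel holds Cfb and C5ar1 apart from the others.

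Counted at 2-fold, few members passed in any comparison, and the shares are read against all 12767 genes. With IL-4 in wild type, 0 of 7 were higher and 1 lower, Cfb, where 1.21% of all genes were higher and 1.25% lower. Between the arrays labelled Dap12-KO, 0 were higher and 1 lower with IL-4, C5ar1, against 8.04% and 17.6% of all genes. A further C3ar1 probe set, not the leading one, was also past 2-fold there, at −1.07. Without treatment 1 member was higher on the array labelled Dap12-KO, C3ar1, and 0 lower, against 3.12% and 3.41%. With IL-4, 1 was higher there, Cfb, and 1 lower, C5ar1, against 10.9% and 17.6%. For the difference of both IL-4 responses, 1 was positive, Cfb, and 2 were negative, C3ar1 and C5ar1, against 8.15% and 14.8%, and after cyclic loess only Cfb kept its side of 2-fold. In that comparison the other C1qb probe sets also passed 2-fold as deposited, at −1.05 and −1.06, but not after cyclic loess, at −0.64 and −0.67. These comparisons share arrays and are not independent of each other.

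IL-4 was the only factor tested, in a limma fit that took the genotypes as its replicates and genotype as a block, with p-values adjusted over all 12767 genes. The scatter in this fit is how far the IL-4 responses differ between genotypes, technical scatter included, with 1 residual degree of freedom per gene. A p-value here reflects no more than these 4 arrays. C5ar1 fell by 1.42 (standard error 0.42, adjusted p = 0.0478, limma), from a mean of 10.10 untreated to 8.68 with IL-4, lower in both genotypes. The fit gave every gene the same standard error, drawn from all genes together. It was thus not set by C5ar1's own difference of IL-4 responses, −1.28. The smallest difference the fit called was 1.41, so C5ar1 lay at the edge of the calls. Of the 7 members 0 rose and 1 fell, where 0.54% of all genes rose and 1.1% fell. The other members had limma differences of −0.66 (Cfb, adjusted p = 0.659) to −0.12 (Cfp, adjusted p = 0.913), and Cfb's hides its unlike values in both genotypes. On values scaled by cyclic loess, limma called 0 genes (814 passed 0.05 unadjusted), and C5ar1 differed by −1.06 (unadjusted p = 0.0142, adjusted p = 0.629, limma). With all 4 arrays and no genotype term, C5ar1 had adjusted p = 0.923 (limma). With each array left out in turn and no genotype term, C5ar1 differed by −0.46 without Dap12-KO IL-4 and −1.10 without WT untreated. It differed by −1.74 without Dap12-KO untreated and −2.38 without WT IL-4. The arrays left are not balanced by genotype, so these differences mix genotype with IL-4. They cannot show how far the call rests on any 1 array.

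Of 47 further complement genes listed, 38 had a probe set of their own and 21 reached the floor, 4 of them only on Dap12-KO IL-4. The 17 below the floor were C1s1, Masp2, Mbl1, Mbl2, Fcnb and Colec10 of the classical and lectin starters, Hc (C5), C8a, C8b and C9 of the later steps, the regulators Cfi, C4bp, Cd55b, Serping1, Cpn1 and Cpn2, and the receptor Cr2. With IL-4 in wild type 0 of the 21 were higher and 1 lower at 2-fold, against 1.21% and 1.25% of all genes. Untreated, 1 was higher and 1 lower on the array labelled Dap12-KO, against 3.12% and 3.41%. Between the arrays labelled Dap12-KO 4 were higher and 2 lower with IL-4, against 8.04% and 17.6% of all genes. Between both IL-4 arrays 5 were higher and 1 lower on the one labelled Dap12-KO, against 10.9% and 17.6%. The 4 genes above the floor only on Dap12-KO IL-4 (Masp1, C8g, Cd46 and Vtn) had to read higher there, and without them 3 of 17 were higher and 2 lower between the arrays labelled Dap12-KO, and 3 higher and 1 lower between both IL-4 arrays. The medians of the 21 were −0.14 with IL-4 in wild type and 0.07 between untreated genotypes, where those of all genes were −0.03 and 0.03. In both comparisons with Dap12-KO IL-4 the medians were −0.46 and −0.14 as deposited, against −0.40 and −0.39 for all genes, and 0.02 and 0.18 after cyclic loess, against 0.07 and 0.11.

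Among the other receptors, Vsig4, which binds C3b on tissue macrophages, was highest on Dap12-KO untreated like C3ar1, and Itgax was lowest there. Vsig4 read 12.05, 11.95, 13.38 and 12.63, 2.52-fold higher on Dap12-KO untreated than on WT untreated. Between both IL-4 arrays it was 0.68 higher on the one labelled Dap12-KO, or 1.23 after cyclic loess. C3ar1 differed by 0.11 there, or 0.63 after cyclic loess. Itgax, the alpha chain of complement receptor 4, read 13.01, 13.02, 11.08 and 12.34, 3.82-fold lower on Dap12-KO untreated than on WT untreated. With IL-4 on the arrays labelled Dap12-KO, Itgax was 1.26 higher, or 1.77 after cyclic loess. Itgb2, the partner of Itgax, read 13.80 to 14.49, and Itgam, the alpha chain of complement receptor 3, read 9.64 to 10.82. The C1q binding protein C1qbp read 13.32 to 13.85 and calreticulin, Calr, 12.01 to 12.81. All of these stayed within 2-fold in the 4 comparisons made of a pair of arrays. Itgam came closest, at −0.98 between both IL-4 arrays, and spanned 1.18 log2 units from WT untreated to Dap12-KO IL-4.

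Cd93, first described as a C1q receptor, read 12.32, 10.78, 13.20 and 11.10, lower on both IL-4 arrays than on either untreated one. It fell by 1.82 with IL-4 (adjusted p = 0.00235, limma), with −1.55 in wild type and −2.10 on the arrays labelled Dap12-KO, or −1.51 and −1.55 after cyclic loess. It was the single called gene of the 21, and after cyclic loess it differed by −1.53 (adjusted p = 0.361, limma). Its call held under 3 of 8 other settings, with limma adjusted p from 0.00143 to 0.726. Of its other probe sets, the brightest gave −1.63 and −2.01, and the faintest 3 gave −0.89 to −0.37 in wild type and −1.33 to 1.26 on the arrays labelled Dap12-KO.

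Among the starters, ficolin A (Fcna), a lectin pathway recognition molecule of macrophages, stayed between 12.22 and 12.79. Colec12, a scavenger receptor of the collectin family, read 9.19, 9.03, 9.60 and 7.23, low on Dap12-KO IL-4 alone, where it was 2.36 lower on the log2 scale than untreated, or 1.72 after cyclic loess. Colec11 reached 7.31 on that array from 6.43 untreated, in 1 of its 2 probe sets.

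The regulators differed in direction on Dap12-KO IL-4. Of the 6 above the floor, 2 were over 2-fold higher than on Dap12-KO untreated, Clu and Cd46, against 8.04% of all genes. Cd46 and Vtn reached the floor on Dap12-KO IL-4 only, so they had to read higher there. Without them 1 of 4 was over 2-fold higher. Clusterin (Clu), an inhibitor of the terminal complex, read 7.24, 7.001, 7.56 and 9.18, a difference of 1.62 with IL-4 on the arrays labelled Dap12-KO, or 2.07 after cyclic loess. Its other probe sets gave 0.17 to 1.01 there, or 0.01 to 1.27 after cyclic loess. Vitronectin (Vtn) differed by 0.89 and was above the floor on this array only. The membrane regulators Cd55 and Cd59a and the mouse regulator Crry (Cr1l) differed by −0.62, −0.61 and −0.55, or −0.79, −0.47 and 0.02 after cyclic loess. The dimmer Cr1l probe sets gave −0.79 and −0.64, or −0.71 and −0.89 after cyclic loess. That of Cd59a gave −0.04, or −0.28 after cyclic loess. Of the terminal components 2 lay above the floor. C6 read 6.33, 6.40, 6.61 and 7.82. C8g read 5.43, 5.34, 6.02 and 6.41, and the membrane cofactor Cd46 read 5.97, 5.96, 6.28 and 7.49, both above the floor on this array only. Dim probe sets read higher on this array in general, with a lower quartile of 5.47 against 5.29 to 5.31, and the part of this in these values was not tested.

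**Figure D3:**
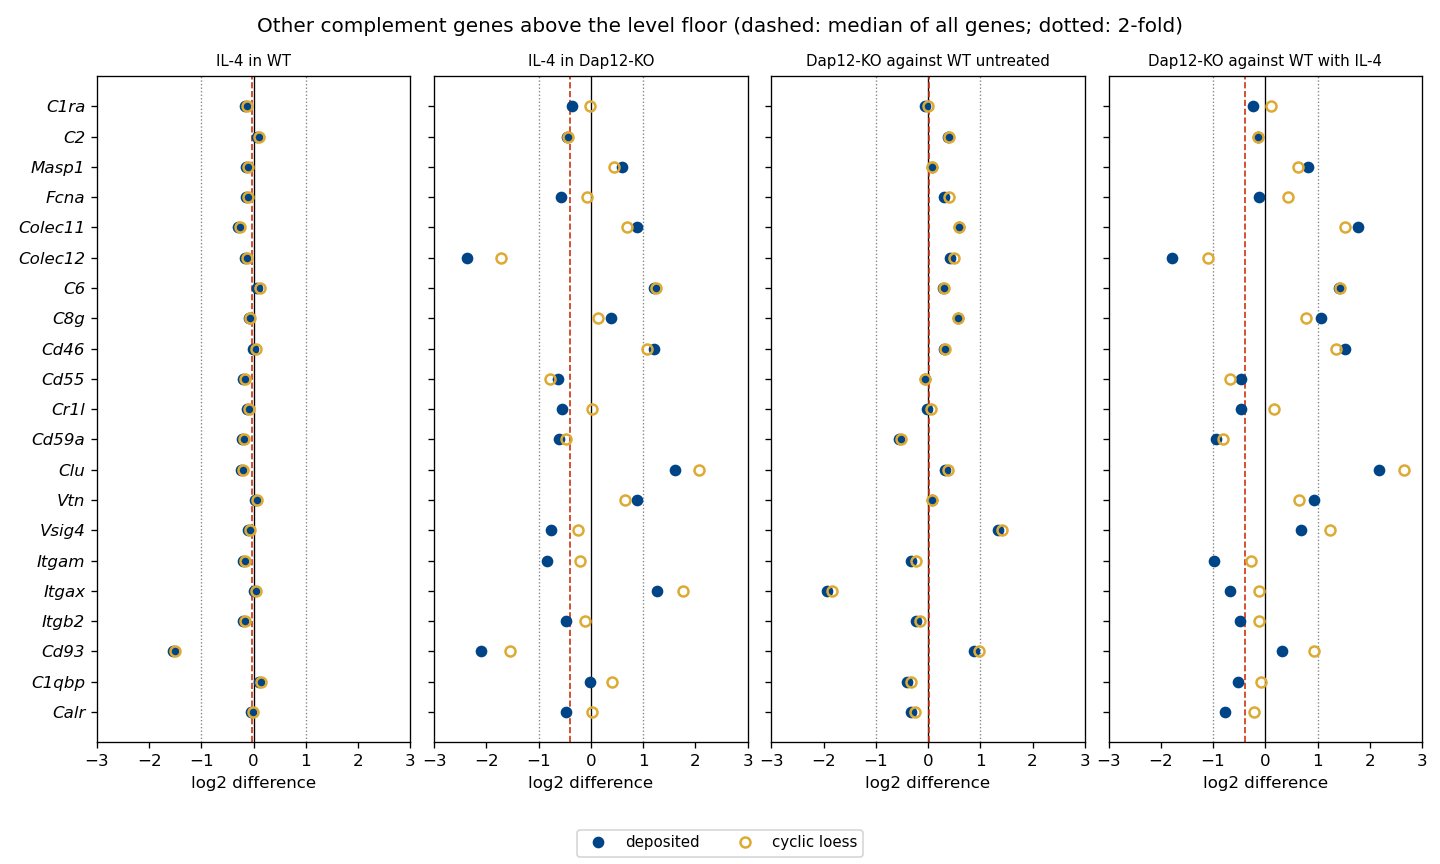
Log2 difference (x axis) of the 21 other complement genes above the level floor (y axis) in the 4 comparisons of a pair of arrays, as deposited (filled) and after cyclic loess (open), with 2-fold dotted and the median of all genes dashed. Cd93 is the only gene past 2-fold with IL-4 in wild type, Vsig4 and Itgax are apart without treatment, and the panels with the array labelled Dap12-KO IL-4 are the most spread.

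Transcription factors with earlier links to C1q genes showed unlike patterns. Maf read 9.16, 9.01, 11.35 and 8.91, highest on Dap12-KO untreated like the C1q genes and 2.19 above WT untreated. Its other probe sets gave 0.27 to 2.63 in that comparison. The one that gave 0.27 was highest on Dap12-KO IL-4, at 7.12 against 6.15 on Dap12-KO untreated. Irf8 read 11.23, 10.25, 11.76 and 10.11 and was lower on both IL-4 arrays. Spi1, which encodes PU.1, read 12.05, 11.80, 11.22 and 11.22. It differed by −0.83 between untreated genotypes, or −0.74 after cyclic loess, and by −0.58 between both IL-4 arrays, where cyclic loess left 0.04. Stat6, the transcription factor of the IL-4 receptor, read 11.23, 10.88, 11.58 and 10.55.

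The genes with the nearest pattern were found by the root mean square difference of centred levels over the 4 arrays, among all genes above the floor. For the mean of the C1q genes these were Elmod3 (0.028 log2 units), the interferon gamma receptor chain Ifngr1 (0.029), Acrbp (0.032), 4930456A14Rik (0.034) and Tatdn3 (0.034). Of these, 4930456A14Rik reached the floor on Dap12-KO untreated only, at 6.82, so it had to read highest there. The search used deposited values, without the scaling of Dap12-KO IL-4. Among the members, C1qb lay 0.090 from Cfp and 0.095 from C1qc, C1qa 0.100 from C3ar1, and C5ar1 at least 0.928 from each of the others. The genes nearest to C3ar1 were Slc9a9 (0.032) and Acaa2 (0.050), and to C5ar1 Tmc6 (0.051) and Cdk14 (0.086). Cfb had no close match, with Mgst2 at 0.212 and Me1 at 0.235.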

How the data were processed

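Total RNA of 4 macrophage samples was measured on 1-colour Affymetrix arrays after 2 cycles of amplification, per the labels' protocols. The deposited table holds 1 log2 value per probe set and array, and the submitters' processing notes name RMA without a version. Scaling within RMA and amplification both bear on how large a difference reads. Detection calls were not used here.

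Of 45101 probe sets, 34945 named 1 gene, 932 several, 9160 none and 64 were controls. Symbols were updated by Entrez identifier to the RefSeq gene table (GRCm38.p6), where 34741 probe sets matched. A gene took its probe set with the highest mean, and counts used the 12767 of 18193 genes whose highest value reached 6.39, the median of the table. The members, the other complement lists and the motifs were chosen with earlier results of these data known. Named genes were the members, listed complement genes at 2-fold in a comparison of a pair of arrays and the brightest 6 of the rest, Tyrobp, the listed factors and the nearest profiles (5 for C1q, 2 for each other member whose arrays spanned 1 log2 unit). Of marker lists, genes were named after their values had been seen, as were the genes below the floor, the regulators Cd55, Cd59a and Vtn, and Masp1.

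Samples were grouped by title. IL-4 was tested with limma 3.58.1 (lmFit, eBayes, R 4.3.3) across all genes with Benjamini-Hochberg adjustment, and genotype was not tested, since the labels do not say whether a genotype's arrays came from separate mice. The fit was run on simulated data with independent noise, where it recovered 34% of changes of 1 log2 unit and 100% of changes of 2. The simulation held no genotype effect, no unlike IL-4 responses and no array set apart like Dap12-KO IL-4. It therefore does not show how reliable the calls on the real arrays are. Other steps used Python 3.11.15, pandas 2.3.3, numpy 2.4.6 and matplotlib 3.10.9. Alternatives were cyclic loess (3 iterations), quantile normalization, median centring, the median over probe sets, each probe set alone, no floor, a floor at the 75th percentile, 3-fold, an intensity trend, no genotype term and, chosen after seeing the data, each array left out.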

Additional observations from a re-analysis of the deposited data

Results flagged for a closer look

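The IL-4 response had opposite signs in the genotypes as labelled for 5 of the 7 measured members by their leading probe sets as deposited, each on 1 array per group, so the difference was not tested. The share of all genes with opposite signs was not counted. Their median response was −0.03 in wild type and −0.40 on the arrays labelled Dap12-KO, or 0.01 and 0.07 after cyclic loess. The count is therefore not read as a trait of the members. Cfb had −1.42 in wild type and 0.11 on the arrays labelled Dap12-KO, a difference of 1.53 that was 1.93 after cyclic loess; with median centring its Dap12-KO response was −0.0016, and the signs were then the same. For C3ar1 the difference was −1.06, for C1qa −0.80, for C1qc −0.73 and for Cfp −0.54, and each of these genes lay within 0.15 of 0 in wild type. After cyclic loess these were −0.62, −0.35, −0.29 and −0.10, and the Cfp responses then had the same sign. Probe sets changed the count too: 1 of the 3 for C3ar1 gave −0.13 and −0.90, the same sign in both genotypes, while the other 2 for C1qb gave opposite signs, 0.31 and −0.73, and 0.30 and −0.76.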

How the results depend on the processing

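Each of the 4 groups held 1 array, and limma's p-values for IL-4 take the genotypes as replicates. Genotype as a block in that fit pairs the arrays by genotype, and the labels give no replicate numbers that could pair them otherwise. Of 225 member values recomputed under an alternative, 201 kept their side of the threshold, 17 fell short of it and 7 newly passed it. None turned the sign of a value past it. The 201 include values under the threshold both times, also where the sign turned, as for Cfp with IL-4 on the arrays labelled Dap12-KO (−0.39 and 0.08). They therefore do not measure how often a value past the threshold held, and the 17 that fell short all came from such values. With cyclic loess or quantile normalization 2 members passed 2-fold untreated between genotypes (C1qa at 1.02 and 1.01) and 1 in the difference of IL-4 responses, and with the median over probe sets 0 passed untreated, as C3ar1 read 0.98. With median centring 2 passed with IL-4 on the arrays labelled Dap12-KO. At 3-fold 0 members passed with IL-4 in wild type, between untreated genotypes and for the difference of IL-4 responses, and 1 passed between both IL-4 arrays. A floor at the 75th percentile removed Cfb, which left 0 members for the wild type IL-4 response and 1 between both IL-4 arrays. The limma call of C5ar1 held under 1 of 8 other settings, the higher floor, and 0 members were called with cyclic loess, quantile normalization, median centring, the median over probe sets, no floor, an intensity trend or no genotype term, with adjusted p from 0.0357 to 0.923 over the 8. With an array left out and no genotype term, C5ar1 differed by −2.38 to −0.46, values that mix genotype with IL-4. The cause of these changes was not tested. The array labelled Dap12-KO IL-4 enters neither IL-4 in wild type nor the untreated genotype comparison.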
